A study of Mus with 9 samples.

Results

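The mitochondrial genome of the mouse gives rise to 37 annotated genes, and all of them had a row in the table of raw counts. They were taken as the rows whose gene name starts with mt-, which made 37 of 55421 rows. They comprise 13 mRNAs, 2 rRNAs and 22 tRNAs. All 37 were matched to a RefSeq gene table of GRCm38, the build of the counts, and lie on chromosome MT, whose positions are given below as that table has them. Of the 37, 36 passed the filter on low counts and were tested. The exception was mt-Ts2, a tRNA for serine (AGY codons), which had 1 count in every library and is given no comparison.

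Mitochondrial DNA is a small circle, present in many copies per cell, that is transcribed from promoters on its heavy and light strands into long precursor RNAs spanning many genes. The tRNAs sit between most of the mRNAs and rRNAs, and enzymes that cut at the tRNA ends release the individual RNAs, many of which then receive a short poly(A) tail. The mRNAs encode core membrane subunits of respiratory complexes I, III and IV and of the ATP synthase, complex V, while the remaining subunits and every protein of the transcription and translation apparatus are encoded in the nucleus. Heart muscle is among the tissues richest in mitochondria. Because the members come from a few shared precursors, their values are not independent of one another, and a count of members is not a count of separate events.

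The samples were bulk RNA sequencing libraries from wild-type male C57BL/6J mice aged 8 to 10 weeks and weighing 20 to 23 g, with the tissue labelled atria and, in the series design, left atrium. Sham mice had the operation without ligation and received vehicle (Sham 1 to 3). MI mice had myocardial infarction produced by a permanent ligature on the left anterior descending artery of the heart and received vehicle (libraries titled MI 2, MI 3 and MI 4). MI_ART mice had the same ligation and received artesunate, an antimalarial derivative of artemisinin, by intraperitoneal injection (MI_ART 1 to 3). The labels give its dose as 25 mg/kg daily for 7 days from surgery in one place and as 10 mg/kg every other day in another, where it starts 2 days ahead of surgery and runs to day 7. They name DMSO as the solvent of artesunate, do not state the day of harvest, and in one place call the animals rats and speak of 4 groups. Nothing states that each library came from its own animal, so p-values reflect only how far these samples spread, which may be technical. The comparisons ask what infarction changed, whether artesunate after infarction moved the same RNAs, and what still differed from sham surgery.

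Total counts per library ran from 68046341 to 83685313. Levels are given in CPM, that is, counts relative to the library size after scaling by trimmed means of M values (TMM), and a floor of 3 counts corresponded to 0.0322 to 0.0592 CPM, a limit that covers counting error only. The scaling factors were 0.624 to 0.744 in Sham, 1.19 to 1.28 in MI and 1.14 to 1.17 in MI_ART, so the CPM of Sham libraries exceed their share of the raw counts and those of the infarcted groups fall below it. In bulk tissue, fewer cells of a type and less RNA per cell cannot be told apart. Ventricular and atrial muscle transcripts were mixed in these samples. Myl2, the ventricular regulatory light chain, over Myl7, its atrial counterpart, ranged from 3.64 to 17.7 in Sham. Across MI 2 to 4 the ratio was 1.87, 2.36 and 0.460, below every Sham library. MI_ART 1 (5.45) lay within the Sham range and MI_ART 2 within the MI range. MI_ART 3 stood at 784, where Myl7, a defining atrial marker, was only 1.96 CPM. Several results that turn on MI 4 or MI_ART 3 are given with and without them, but the marker lists only with them. MI 2 and MI 3 also lay below Sham, so leaving out MI 4 does not level the ratio between MI and Sham. Its part in the differences between these groups was not tested.

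After infarction, mitochondrially encoded RNA was lower across the whole genome of the organelle. In MI versus Sham, 34 of the 36 tested genes fell and none rose, where 14.3% of all tested genes fell and 18.8% rose: 13 of 13 mRNAs, 2 of 2 rRNAs and 19 of 21 tRNAs. The median log2 difference was -2.09 for the mRNAs, -2.39 for the rRNAs and -2.84 for the tRNAs, against 0.04 for all 19326 genes tested. The tRNAs for phenylalanine, mt-Tf (-2.07 ± 0.74 (SE), adjusted p = 0.057), and for serine (UCN codons), mt-Ts1 (-0.60 ± 0.72, adjusted p = 0.561), did not pass. In MI_ART versus Sham, 33 of 36 fell and none rose, where 7.41% of all genes fell and 12.9% rose, and the medians were -1.56, -1.89 and -2.07 in the same order. Here mt-Tv, the tRNA for valine, missed the threshold as well (-2.03 ± 0.70, adjusted p = 0.0692). MI_ART versus MI gave no call among the 36. Both infarcted groups share the Sham libraries as their comparison. Every one of the 36 had all MI libraries and all MI_ART libraries below all Sham libraries on the CPM scale, a separation found for 23.2% of all tested genes in MI and 22.8% in MI_ART. The margin was least for mt-Ts1 (0.183 CPM in MI 4 against 0.184 in Sham 1), whose difference in MI changed sign with total counts. With total counts in place of TMM, the median of all genes itself shifted to 0.88 in MI versus Sham and 0.75 in MI_ART versus Sham, the mRNA medians were -1.23 and -0.81, and 33 and 30 members fell. On that scale 3.33% of all genes fell and 49.3% rose in MI versus Sham, and 0.642% fell and 41.6% rose in MI_ART versus Sham. The mRNA median minus the all-gene median was -2.12 with TMM and -2.11 with total counts in MI versus Sham. The same change of scale moved the share of all calls that were higher from 56.7% to 93.7% in MI versus Sham and from 63.5% to 98.5% in MI_ART versus Sham.

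**Figure D1:**
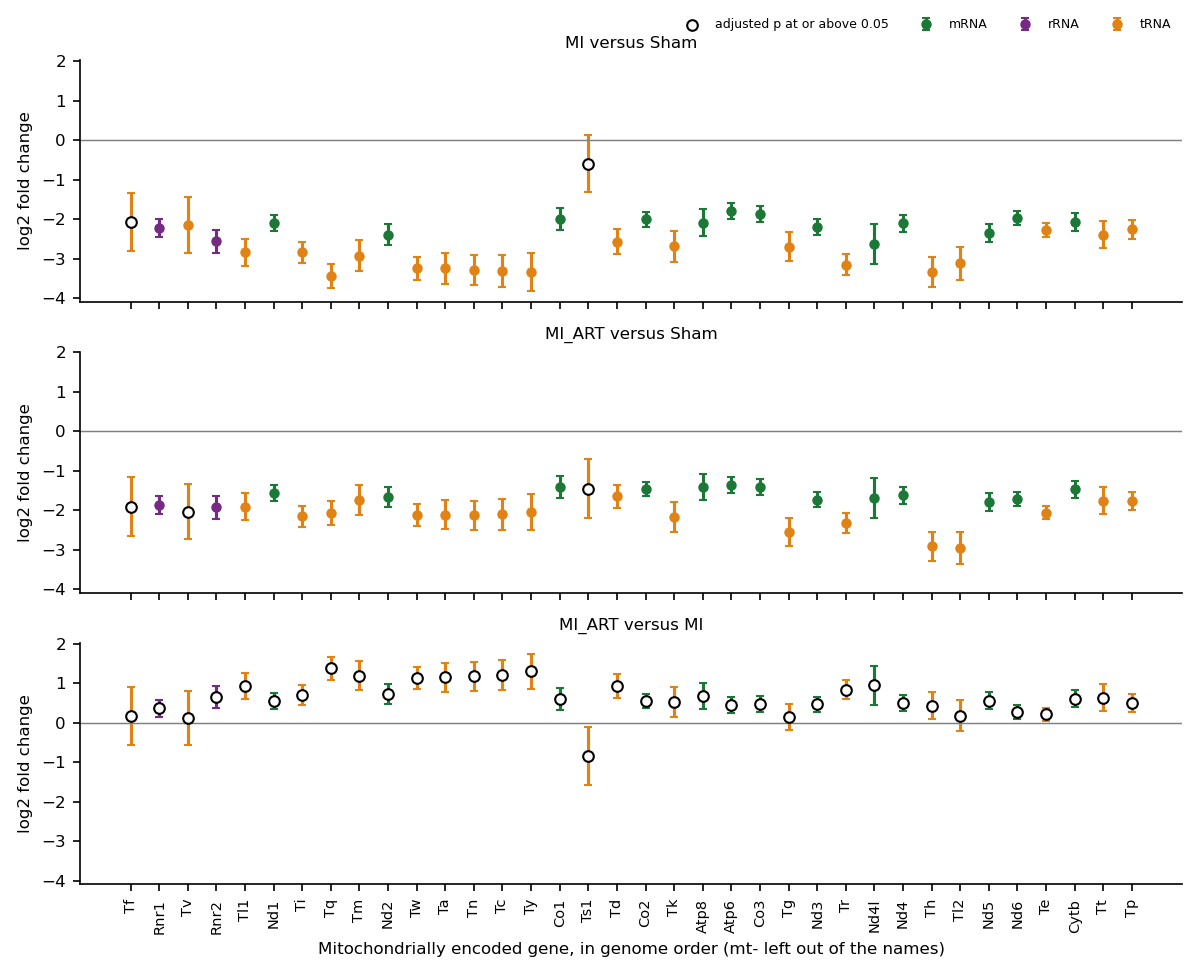
Log2 fold change with its SE from the edgeR fit for the 36 tested mitochondrially encoded genes, in genome order, for MI versus Sham, MI_ART versus Sham and MI_ART versus MI, coloured by RNA class, with open circles for adjusted p at or above 0.05. The tRNA points in MI versus Sham mostly lie below the mRNA points, whose values run from -2.63 to -1.80, and no point in MI_ART versus MI passes.

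Transcripts of the cells that make up the tissue moved with this fall, and their part in it was not tested. Beside the marker calls given here, 14.3% of all tested genes fell and 18.8% rose in MI versus Sham with TMM. Of 10 markers found in all heart muscle cells 6 fell in MI versus Sham, and their summed level was 65000 to 69700 CPM in Sham, 23300 to 35700 in MI and 30400 to 40600 in MI_ART, with none at 0 in any library. Of 8 ventricular markers 6 fell, and their sum was 9650 to 11200 CPM in Sham against 2080 to 4000 in MI and 3960 to 5680 in MI_ART. Of 10 atrial markers 1 fell and none rose, with a median log2 of 0.08 in MI versus Sham. Their sums were 1910 to 7660, 13600 to 25400 and 1350 to 12700 CPM in Sham, MI and MI_ART, with Bmp10 at 0 in at least 1 library. The higher sums in MI were thus not shared by the list as a whole. Markers of macrophages went the other way, 8 of 8 rising from sums of 197 to 247 CPM in Sham to 1190 to 1790 in MI and 862 to 1450 in MI_ART. Fibroblast markers rose for 6 of 8 and fell for 1, with sums of 1640 to 1840, 7750 to 9150 and 6850 to 8100 CPM, and neutrophil markers rose for 6 of 6 tested, with sums of 1.32 to 1.55, 47.1 to 112 and 17.7 to 86.5 CPM and 5 of 7 at 0 in at least 1 library (S100a8, Cxcr2, Ly6g, Mmp8 and Retnlg). Endothelial markers fell for 2 of 7, with sums of 747 to 785, 640 to 878 and 651 to 692 CPM. Brown adipocyte markers, a further mitochondria-rich cell type, rose for 1 and fell for 1 of 6 tested (median log2 -0.92 in MI versus Sham). Their sums were 194 to 221, 68.8 to 113 and 67.8 to 118 CPM, with Ucp1, Elovl3 and Otop1 at 0 in at least 1 library. Skeletal muscle markers rose for 2 and fell for 1 of 5 tested, with a median log2 of 0.07. Their sums were 2430 to 2650, 676 to 965 and 872 to 1310 CPM, with Tnnc2, Myh4 and Myh1 at 0 in at least 1 library. A sum follows the most abundant members of its list, and the skeletal muscle sum fell without a fall in the median. How far these sums follow the amount of either cell type was not tested. With total counts in MI versus Sham, 3 of the 10 general heart muscle markers fell and 1 rose, 4 of the 8 ventricular markers fell and none rose, 3 atrial markers rose and none fell, and 5 endothelial markers rose and none fell, where 3.33% of all genes fell and 49.3% rose.

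As a share of everything counted, the 37 genes held 39.4, 37.7 and 43.1% across Sham 1 to 3, against 20.6, 18.8 and 12.6% across MI 2 to 4 and 25.5, 23.4 and 23.0% across MI_ART 1 to 3. The 3 groups did not overlap, in the order Sham, MI_ART, MI. The difference was -22.7 percentage points in MI versus Sham, -16.1 in MI_ART versus Sham and 6.66 in MI_ART versus MI. For each the two-sided exact permutation test returned p = 0.1, the lowest that 3 against 3 allows, and an adjusted p of 0.167 over the 15 single-value tests of this kind. Without MI 4 the difference between MI_ART and MI was 4.29 percentage points. Nearly all of these counts were mRNA, and mt-Co1 by itself held 15.0, 15.1 and 17.8% of all counts in the Sham libraries, 9.04, 8.16 and 4.41% in the MI libraries and 10.3, 10.2 and 10.2% in the MI_ART libraries.

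**Figure D2:**
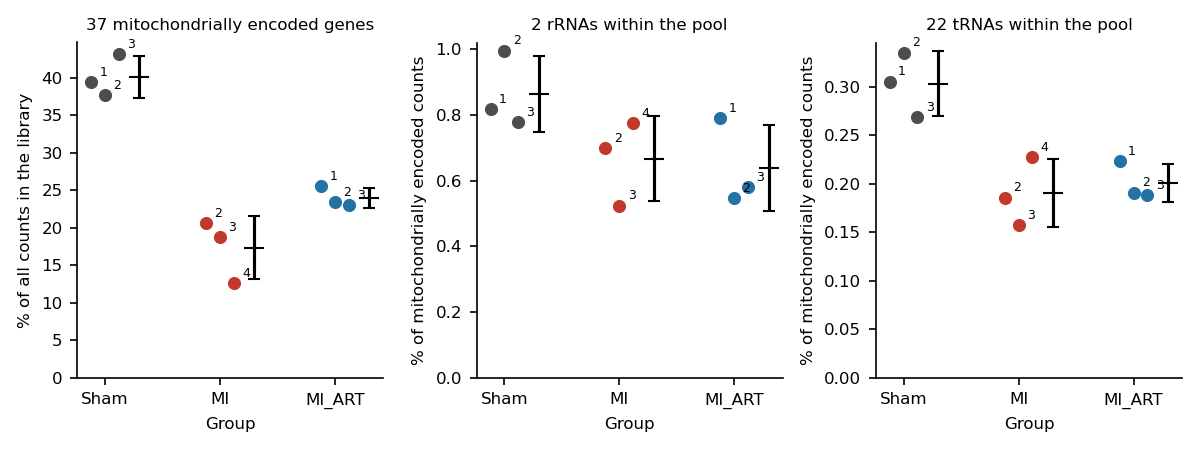
Points are single libraries, labelled by replicate number, and the bar beside them is the group mean with its SD (n = 3). The left panel gives the percent of all counts in the 37 genes, and the other panels give rRNA and tRNA as a percent of the mitochondrially encoded counts. Sham libraries hold 37.7% to 43.1% of all counts in these genes and MI libraries 12.6% to 20.6%.

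Cytochrome c oxidase, complex IV, takes its 3 core subunits from mitochondrial DNA. The gene mt-Co1 (MT:5328-6872) encodes the subunit that holds the site of oxygen reduction. Its level was 210643, 202594 and 285171 CPM across Sham 1 to 3, against 75812, 64331 and 34421 across MI 2 to 4 and 88641, 89038 and 87317 across MI_ART 1 to 3. It fell 4.00-fold in MI versus Sham (log2 -2.00 ± 0.29, adjusted p = 0.000705) and 2.64-fold in MI_ART versus Sham (-1.40 ± 0.28, adjusted p = 0.00725). With total counts the second value was -0.64 (adjusted p = 0.0522) and lost its call. MI 4 had less than any other library, and the MI_ART libraries lay close together above all of MI. The product of mt-Co2 (MT:7013-7696) receives electrons from cytochrome c. Its level was 25420.3, 21261 and 30391 CPM in the Sham libraries, 6769, 6757 and 5682 in the MI libraries and 9472, 9354 and 9033 in the MI_ART libraries, a log2 difference of -2.00 ± 0.18 in MI (adjusted p = 0.000103). For mt-Co3 (MT:8607-9390), the third core subunit, the values were 26603, 23065 and 33807 CPM in the Sham libraries, 8918, 7520.2 and 6221 in the MI libraries and 10602, 10397 and 10330.5 in the MI_ART libraries, a log2 difference of -1.88 ± 0.20 in MI (adjusted p = 0.000186). Between MI_ART and Sham the log2 differences were -1.47 ± 0.18 for mt-Co2 (adjusted p = 0.000542) and -1.41 ± 0.20 for mt-Co3 (adjusted p = 0.00124). In both genes the groups kept apart, Sham above MI_ART and MI_ART above MI.

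The ATP synthase, complex V, has 2 mitochondrially encoded subunits, and their genes overlap by 43 bases. The gene mt-Atp6 (MT:7927-8607) encodes the subunit that forms the path of protons through the membrane. It was measured at 29273, 25533 and 35968 CPM across Sham 1 to 3, against 10129, 9022 and 6905 across MI 2 to 4 and 12471, 11758 and 11012 across MI_ART 1 to 3. The log2 difference of -1.80 ± 0.20 in MI versus Sham (adjusted p = 0.000227) was the smallest fall among the mRNAs, though it differed from its neighbours in that order by less than its SE. For MI_ART against Sham it was -1.36 ± 0.20 (adjusted p = 0.00148). The short gene mt-Atp8 (MT:7766-7969) encodes a small membrane subunit of the same enzyme. Its level was 6478, 5616 and 8275 CPM in the Sham libraries, 1978, 2009.9 and 805 in the MI libraries and 2934, 2292 and 2398 in the MI_ART libraries, and its log2 difference was -2.09 ± 0.33 in MI (adjusted p = 0.00129) and -1.42 ± 0.33 in MI_ART (adjusted p = 0.0139). The second call was lost without Sham 3 (adjusted p = 0.0574), MI_ART 2 (0.0553) or MI_ART 3 (0.0565), and with total counts (0.1). MI 4 was well below MI 2 and MI 3 in mt-Atp8.

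Complex I, NADH dehydrogenase, has 7 mitochondrially encoded subunits, all in its membrane arm. The median log2 difference was -2.20 in MI versus Sham (range -2.63 to -1.98) and -1.69 in MI_ART versus Sham (range -1.80 to -1.56), with 7 of 7 passing in each. The gene mt-Nd1 (MT:2751-3707), whose product lies at the ubiquinone site, stood at 41257, 38232 and 45418 CPM across Sham 1 to 3, against 11619.6, 10189.8 and 7262 across MI 2 to 4 and 15318, 13918 and 13136 across MI_ART 1 to 3. It fell 4.30-fold in MI (log2 -2.10 ± 0.21, adjusted p = 0.000124) and 2.95-fold in MI_ART (-1.56 ± 0.20, adjusted p = 0.000746). Sham, MI_ART and MI formed separate ranges for mt-Nd1 and for the other 6 genes of the complex.

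The large subunits ND2, ND4 and ND5 resemble ion antiporters and form the proton channels of the membrane arm. The level of mt-Nd2 (MT:3914-4951) was 40347, 34723 and 48985 CPM across Sham 1 to 3, against 9788, 8457 and 5393 across MI 2 to 4 and 15428, 12048 and 11576 across MI_ART 1 to 3, with a log2 difference of -2.39 ± 0.26 in MI (adjusted p = 0.000186) and -1.67 ± 0.25 in MI_ART (adjusted p = 0.00168). That of mt-Nd4 (MT:10167-11544) was 43161, 36138 and 47383 CPM in the Sham libraries, 12149.9, 9347 and 7913 in the MI libraries and 16168, 12892 and 12394 in the MI_ART libraries, with differences of -2.11 ± 0.22 (adjusted p = 0.000152) and -1.61 ± 0.21 (adjusted p = 0.00086). For both, MI_ART 1 was the highest infarcted library and MI 4 the lowest. The third of them, mt-Nd5 (MT:11742-13565), was measured at 42721, 39214 and 46631 CPM in the Sham libraries, 10478, 8481 and 6229.7 in the MI libraries and 14619, 11543 and 10832 in the MI_ART libraries, with differences of -2.35 ± 0.23 (adjusted p = 0.000123) and -1.80 ± 0.23 (adjusted p = 0.000614). Its last 14 bases lie opposite the end of mt-Nd6, and the strand setting of the counting is not given, so counts of the pair are uncertain there.

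Of the small subunits, mt-Nd3 (MT:9459-9806) was at 2008, 1846 and 2613 CPM across Sham 1 to 3, against 466, 540.1 and 404 across MI 2 to 4 and 603, 676 and 660.4 across MI_ART 1 to 3, and its log2 difference was -2.20 ± 0.19 in MI (adjusted p = 9.56e-05) and -1.74 ± 0.19 in MI_ART (adjusted p = 0.000329). The gene mt-Nd4l (MT:9877-10173), which shares 7 bases with mt-Nd4, was at 3692, 3034 and 4224 CPM in the Sham libraries, 860.0, 747 and 159.8 in the MI libraries and 1417, 1035 and 947 in the MI_ART libraries. Here MI 4 lay far below every other library. Its difference was -2.63 ± 0.51 in MI (adjusted p = 0.00363), and -2.18 without MI 4. In MI_ART versus Sham it was -1.69 ± 0.50 (adjusted p = 0.0387), a call that was lost when any 1 Sham or MI_ART library or MI 3 was left out, at adjusted p of 0.0525 to 0.126, and with total counts (0.135), no filter (0.0709) or limma-voom (0.0532). The mRNA annotated on the light strand, mt-Nd6 (MT:13552-14070), was at 15294, 14055 and 17937 CPM in the Sham libraries, 4071, 3455 and 4467 in the MI libraries and 5191, 4721 and 4516 in the MI_ART libraries. It fell by 1.98 ± 0.18 on the log2 scale in MI (adjusted p = 0.0001) and by 1.71 ± 0.18 in MI_ART (adjusted p = 0.000262). It was the sole mRNA in which MI 4 was not the lowest MI library.

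Cytochrome b, encoded by mt-Cytb (MT:14145-15288), is the only mitochondrially encoded subunit of complex III and binds the hemes that pass electrons from ubiquinol. Its level was 59679.5, 53955 and 77238 CPM across Sham 1 to 3, against 18216, 16066 and 11205 across MI 2 to 4 and 24226, 23294 and 21415 across MI_ART 1 to 3. It fell 4.20-fold in MI versus Sham (-2.07 ± 0.23, adjusted p = 0.000195) and 2.77-fold in MI_ART versus Sham (-1.47 ± 0.22, adjusted p = 0.0017), again with no overlap between any of the groups.

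The 2 rRNAs build the ribosome that translates these mRNAs. In the library preparation, named in the labels as a SMARTer kit for mRNA from 1.3 µg of RNA, they were sparse, at 0.818, 0.996 and 0.777% of mitochondrially encoded counts in the Sham libraries, 0.699, 0.524 and 0.775% in the MI libraries and 0.789, 0.547 and 0.580% in the MI_ART libraries. How far these rows follow the ribosome content of the tissue was not tested. The small-subunit 12S rRNA, mt-Rnr1 (MT:70-1024), was at 1377, 1704 and 1812 CPM across Sham 1 to 3, against 404, 293 and 349.5 across MI 2 to 4 and 573, 363 and 410.1 across MI_ART 1 to 3. It fell by 2.23 ± 0.23 on the log2 scale in MI (adjusted p = 0.000144) and by 1.86 ± 0.22 in MI_ART (adjusted p = 0.000499). MI and MI_ART overlapped, unlike in the mRNAs. The large-subunit 16S rRNA, mt-Rnr2 (MT:1094-2675), was at 3143, 3334 and 3559.5 CPM in the Sham libraries, 804, 482 and 410.3 in the MI libraries and 1156, 755 and 733 in the MI_ART libraries, with log2 differences of -2.56 ± 0.29 in MI (adjusted p = 0.00022) and -1.92 ± 0.28 in MI_ART (adjusted p = 0.00143). The ratio of 16S to 12S counts was 2.28, 1.96 and 1.96 across Sham 1 to 3, against 1.99, 1.65 and 1.17 across MI 2 to 4 and 2.02, 2.08 and 1.79 across MI_ART 1 to 3, lowest in MI 4. Within the mitochondrial pool the rRNA share differed by -0.197 percentage points between MI and Sham, where MI 4 came close to the lowest Sham library (exact permutation p = 0.1, adjusted p = 0.167).

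A mature tRNA is short, folded and not polyadenylated, and the tRNA rows hold few counts. Reads in them may come from mature tRNA or from precursors that span the gene, which these counts do not tell apart. Of 22, 15 had over 1000 counts summed over the 9 libraries and 7 had fewer. All 15 of the first kind fell in MI versus Sham, with a median log2 of -3.16 (range -3.44 to -2.26), and all 15 fell in MI_ART versus Sham, with a median of -2.11 (range -2.95 to -1.74). The row with the most counts was mt-Te, for glutamate (MT:14071-14139), at 562, 591 and 607 CPM across Sham 1 to 3, against 125, 102 and 139.6 across MI 2 to 4 and 161, 134 and 129 across MI_ART 1 to 3. It fell by 2.26 ± 0.18 on the log2 scale in MI (adjusted p = 6.36e-05) and by 2.06 ± 0.17 in MI_ART (adjusted p = 0.000138). MI 4 was the highest MI library and overlapped the MI_ART range. Next came mt-Tn, for asparagine (MT:5089-5159), at 178, 198 and 246 CPM in the Sham libraries, 32.4, 21.3 and 10.0 in the MI libraries and 57.7, 43.7 and 41.4 in the MI_ART libraries, with differences of -3.29 ± 0.39 (adjusted p = 0.00027) and -2.12 ± 0.37 (adjusted p = 0.00353). The third was mt-Tl1, for leucine with UUR codons (MT:2676-2750), at 183, 169 and 163 CPM in the Sham libraries, 35.1, 25.1 and 11.6 in the MI libraries and 52.7, 45.4 and 39.2 in the MI_ART libraries, with differences of -2.84 ± 0.35 (adjusted p = 0.000338) and -1.91 ± 0.34 (adjusted p = 0.00391). In both of these MI 4 was the lowest library of all.

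The largest falls among the 36 in MI versus Sham, named after their values were seen, were in mt-Tq, for glutamine (-3.44 ± 0.31, adjusted p = 0.000103), mt-Ty, for tyrosine (-3.34 ± 0.47, adjusted p = 0.00069), and mt-Th, for histidine (-3.33 ± 0.37, adjusted p = 0.000213). Which genes lead turned on MI 4: without it the largest falls were in mt-Th (-3.61), mt-Tl2, for leucine with CUN codons (-3.55), and mt-Tq (-3.26), and mt-Ty was at -2.93, behind mt-Tg, mt-Tr and mt-Tk among others. With all libraries the values of mt-Tq, mt-Ty and mt-Th differed by less than their SEs. The level of mt-Tq (MT:3772-3842) was 11.9, 9.97 and 13.4 CPM across Sham 1 to 3, against 1.54, 0.911 and 0.797 across MI 2 to 4 and 3.43, 2.41 and 2.56 across MI_ART 1 to 3. The 3 groups were apart, with Sham far above the others and MI_ART above MI. At the other end, mt-Ts1 (MT:6870-6938) had 92 counts in all and was at 0.184, 0.217 and 0.249 CPM in the Sham libraries, 0.125, 0.118 and 0.183 in the MI libraries and 0.136, 0.0375 and 0.0616 in the MI_ART libraries. Its log2 difference was -0.60 ± 0.72 in MI and -1.45 ± 0.75 in MI_ART (adjusted p = 0.21), and 0.25 in MI versus Sham with total counts. At this depth no difference was detectable for it. For mt-Tv, with 212 counts in all, the fall in MI (-2.15 ± 0.70, adjusted p = 0.0406) was lost in 8 of the 9 fits that left out 1 library, at adjusted p up to 0.105, and held only without MI 4 (adjusted p = 0.0124).

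Measured against the mitochondrial mRNAs rather than against all genes, part of the tRNA rows fell further. This comparison, added after the data were seen, took the summed counts of the 13 mRNAs as the library size. It holds the sum of the 13 mRNAs level by construction, so a lack of calls among them is largely built in. In MI versus Sham 11 of 21 tested tRNAs were lower and none higher, and no mRNA or rRNA passed with all libraries in the fit. The nearest were mt-Rnr2 at -0.53 ± 0.23 (adjusted p = 0.0501) and mt-Nd2 at -0.34 ± 0.14 (adjusted p = 0.0523). On this scale 0.357% of all tested genes were lower and 81.5% higher, so the adjustment raises p only slightly and the background differs in kind from that of the other scale. The count was 9 to 15 when 1 library was left out. In MI_ART versus Sham 7 tRNAs were lower, against 0.0776% of all genes lower and 71.4% higher, but that count was 0 without Sham 1, Sham 2, MI_ART 2 or MI_ART 3, 4 without Sham 3 or MI_ART 1, and 13 without MI 4. None passed in MI_ART versus MI, where 0.00517% of all genes were lower and 0.0% higher, though 4 tRNAs (mt-Ta, mt-Tn, mt-Tc and mt-Ty) were higher there without MI 2. Leaving out 1 library also brought calls among the longer RNAs, all lower. In MI versus Sham these were mt-Nd2, mt-Nd5 and mt-Rnr2 without MI 4, mt-Nd2 and mt-Rnr2 without MI_ART 1, and mt-Rnr2 without MI 2. In MI_ART versus Sham they were mt-Nd5 without MI 4, and mt-Nd5 and mt-Rnr2 without MI_ART 1.

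The neighbouring light-strand genes mt-Ta, mt-Tn, mt-Tc and mt-Ty, for alanine, asparagine, cysteine and tyrosine, lie together between mt-Nd2 and mt-Co1 and were singled out after their values were seen. Their summed counts per 10000 counts of the 13 mRNAs were 9.69, 11.6 and 10.4 across Sham 1 to 3, against 5.63, 4.21 and 2.78 across MI 2 to 4 and 7.86, 6.47 and 6.32 across MI_ART 1 to 3. All MI and MI_ART libraries lay below all Sham libraries, and MI 4 was the lowest of all. Relative to the mRNAs, mt-Tn fell by 1.31 ± 0.25 on the log2 scale in MI (adjusted p = 0.000774). By contrast mt-Te, also on the light strand and next to mt-Nd6, was at -0.12 ± 0.29 (adjusted p = 0.717), and mt-Tp, for proline, at -0.21 ± 0.21 (adjusted p = 0.372). Whether the block and mt-Te differ from each other was not tested. The fall relative to the mRNAs was not confined to the block or to the light strand. Heavy-strand mt-Tw, next to the block, was at -1.25 ± 0.23 in MI versus Sham (adjusted p = 0.000645). Outside the block mt-Tl1, mt-Ti, mt-Tq, mt-Tm, mt-Tr and mt-Th were called lower too.

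**Figure D3:**
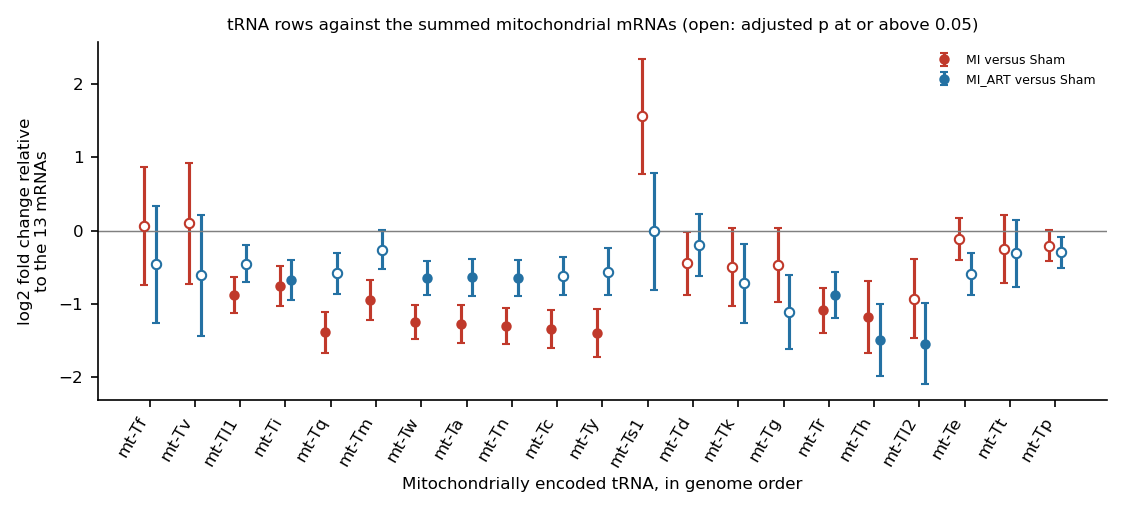
Log2 fold change with its SE for the 21 tested tRNAs after scaling each library to its summed counts of the 13 mitochondrial mRNAs, in genome order, for MI versus Sham and MI_ART versus Sham, with open points for adjusted p at or above 0.05. In MI versus Sham the points from mt-Tl1 to mt-Ty lie between -1.40 and -0.76, and those of mt-Tf, mt-Tv and mt-Ts1, which hold few counts, have the widest error bars.

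Within the pool of 13 mRNAs the makeup shifted little. The share of mt-Nd2 was 7.38, 6.95 and 7.16% in the Sham libraries, 5.72, 5.76 and 5.56% in the MI libraries and 7.11, 5.94 and 5.92% in the MI_ART libraries, lower in all MI libraries than in all Sham libraries. That of mt-Nd5 was 7.82, 7.85 and 6.82% in the Sham libraries, 6.12, 5.77 and 6.42% in the MI libraries and 6.73, 5.69 and 5.54% in the MI_ART libraries, lower in both infarcted groups than in Sham. The share of mt-Atp6 went the other way, at 5.36, 5.11 and 5.26% in the Sham libraries, 5.91, 6.14 and 7.11% in the MI libraries and 5.74, 5.79 and 5.63% in the MI_ART libraries, with Sham below MI_ART and MI_ART below MI. Shares of mt-Co3 (higher) and mt-Nd4l (lower) also separated MI from Sham. Those of mt-Nd3 (0.278% to 0.338% in MI_ART against 0.367% to 0.382% in Sham) and mt-Nd6 (2.31% to 2.39% against 2.62% to 2.82%) were lower in all MI_ART libraries than in all Sham libraries. MI_ART lay above MI in mt-Nd2 without overlap. The shares of mt-Nd1, mt-Co1, mt-Co2, mt-Atp8, mt-Nd4 and mt-Cytb overlapped in all 3 comparisons. The exact permutation test returned p = 0.1 for every separation, the lowest possible, and an adjusted p of 0.355 over 39 such tests, so none passed. The most abundant mRNA, mt-Co1, held 38.5, 40.6 and 41.7% in the Sham libraries, 44.3, 43.8 and 35.5% in the MI libraries and 40.8, 43.9 and 44.6% in the MI_ART libraries, with MI 4 below all Sham libraries and MI 2 and MI 3 above them.

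**Figure D4:**
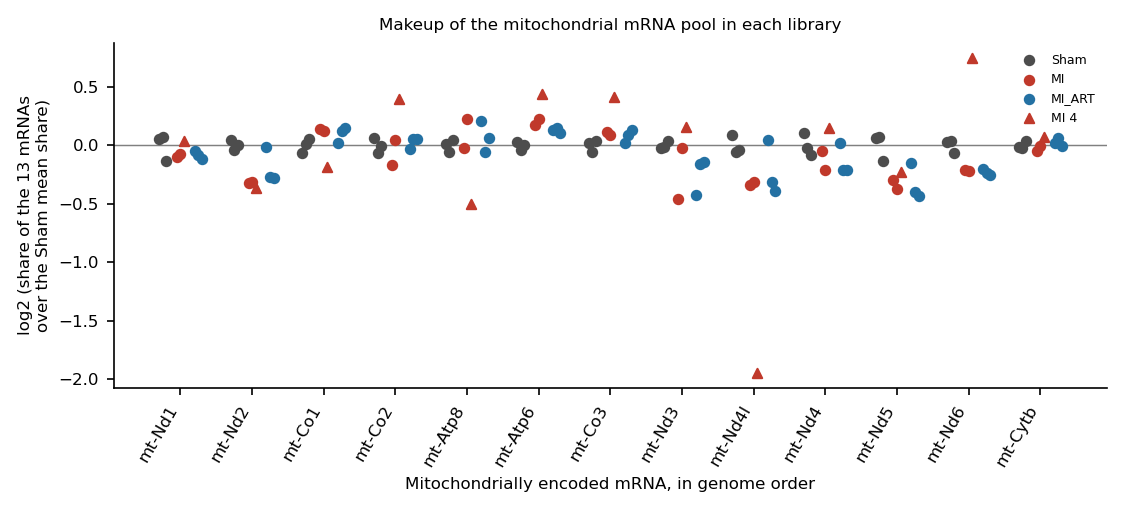
Each point is 1 library: the log2 ratio of a gene share of the 13 mitochondrial mRNAs to its mean share in Sham, with genes in genome order, groups by colour and MI 4 as a triangle. MI 4 stands apart in mt-Nd4l, mt-Nd6, mt-Atp8, mt-Co2, mt-Atp6 and mt-Co3, and most other points lie close to 0.

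One library, MI 4, had a mitochondrial profile of its own. It had the lowest level of the 3 MI libraries in 12 of 13 mRNAs and in 22 of the 36 tested genes, and the highest in 11. Its mt-Nd6 made up 4.60% of the 13 mRNAs, against 2.31% to 2.82% in the other 8 libraries. Its mt-Te stood at 14.4 counts per 10000 mRNA counts, against 6.59 to 11.8. In the same library mt-Nd4l had 2.02 counts per 100 of its overlapping neighbour mt-Nd4, against 7.08 to 8.92 elsewhere, and mt-Atp8 had 11.7 per 100 of mt-Atp6, against 19.5 to 23.5. So in MI 4 light-strand mt-Nd6 and mt-Te were high, and mt-Nd4l and mt-Atp8 were low against the overlapping genes downstream of them. The same library had the lowest Myl2 over Myl7 and stood apart in nuclear transcripts as well. Its Myl7 was 989 CPM, against 1.96 to 822 in the other 8 libraries. Its Rplp0, a nuclear gene for a cytosolic ribosomal protein, was 1977 CPM, against 670 to 1006. Counts of mt-Nd6 per 100 counts of the 12 heavy-strand mRNAs were 2.88, 2.90 and 2.69 across Sham 1 to 3, against 2.43, 2.41 and 4.82 across MI 2 to 4 and 2.45, 2.38 and 2.36 across MI_ART 1 to 3. The MI minus Sham difference was 0.400 (exact permutation p = 1), and it was -0.401 without MI 4. MI_ART was below Sham by this measure (difference -0.425, exact permutation p = 0.1, adjusted p = 0.167). Without MI 4 the median log2 difference of the 13 mRNAs from Sham was -1.93, and 34 members still fell.

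Between the infarcted groups, levels were higher with artesunate for most mitochondrially encoded genes, but no gene passed. In MI_ART versus MI, 35 of 36 tested genes had a higher mean, with a median log2 of 0.54 for the 13 mRNAs (range 0.27 to 0.94), 0.50 for the rRNAs and 0.69 for the tRNAs, against 0.00 for all genes. In edgeR 0 of 36 were called, at adjusted p of 0.57 to 0.972, where 0.0% of all genes were called higher and 0.0103% lower (2 genes). At an unadjusted p under 0.05 there were 20 of 36, all higher, where 3.76% of all genes were. All MI_ART libraries lay above all MI libraries in 25 of 36, comprising 13 mRNAs, 12 tRNAs and neither rRNA, where 7.38% of all genes did. DESeq2 called 2 of 36, both tRNAs and both higher, where it called 0.248% of all genes higher: mt-Tq (1.38, adjusted p = 0.00844) and mt-Tw, for tryptophan (1.14, adjusted p = 0.0354). In edgeR mt-Tq was at 1.37 ± 0.29 (adjusted p = 0.57) and mt-Tw at 1.13 ± 0.28 (adjusted p = 0.636), and limma-voom called 0.

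The size of that difference leaned on MI 4. Without it the median of the 13 mRNAs was 0.36, with 0 of 36 called and 19 at an unadjusted p under 0.05, and the difference of mt-Nd4l was 0.50 in place of 0.94. Without MI 4 and MI_ART 3 together the mRNA median was 0.42, with 0 called and 17 at an unadjusted p under 0.05. The number at an unadjusted p under 0.05 leaned more on MI_ART 1. It was 11 without MI_ART 1, where the mRNA median was 0.51. With a block for replicate number it was 12, and the mRNA median was 0.35. Among the mRNAs mt-Nd4l (0.94 ± 0.49, adjusted p = 0.732) and mt-Nd2 (0.72 ± 0.25, adjusted p = 0.687) had the highest values and mt-Nd6 (0.27 ± 0.17, adjusted p = 0.759) the lowest. The one gene with a lower mean was mt-Ts1 (-0.85 ± 0.73, adjusted p = 0.803), which held 92 counts. MI_ART 1 was the highest MI_ART library in 33 of 36 genes and in 11 of 13 mRNAs. Markers found in all heart muscle cells were also higher in MI_ART than in MI without passing, with a median log2 of 0.24. Their summed level was 23300 to 35700 CPM in MI and 30400 to 40600 in MI_ART, and 0 of 10 were called. The 8 ventricular markers had a median of 0.58, with sums of 2080 to 4000 CPM in MI and 3960 to 5680 in MI_ART. Atrial markers went the other way, at a median of -0.89. Their sums were 13600 to 25400 CPM in MI and 1350 to 12700 in MI_ART, without overlap. None of the ventricular or atrial markers was called.

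Per kilobase of gene length the order of the mRNAs was much the same in each group. Highest was mt-Co1, at means of 150681 CPM per kilobase in Sham, 37662 in MI and 57173 in MI_ART, followed by mt-Cytb (55615, 13254 and 20086), mt-Atp6 and mt-Nd1 in all 3 groups. The library ranges of mt-Cytb, mt-Atp6 and mt-Nd1 overlapped in Sham and in MI. Lowest of the mRNAs was mt-Nd3 (6194, 1351 and 1858), below mt-Nd4l and mt-Nd5. The largest change of place was that of mt-Nd2, from rank 5 in Sham to 9 in MI and 7 in MI_ART. Among the rRNAs and tRNAs mt-Te led, at means of 8502, 1770.5 and 2046 CPM per kilobase, above both rRNAs and above the means of mt-Nd3. The library ranges of mt-Te and mt-Nd3 overlapped in MI and in MI_ART.

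Nuclear genes for the same complexes fell too, with medians nearer 0 than those of the mitochondrial mRNAs. Of the listed nuclear subunits 34 of 36 in complex I fell in MI versus Sham (median log2 -1.13), 9 of 9 in complex III (-1.10), 12 of 14 in complex IV (-1.17, with Cox6a1 higher at 1.02 ± 0.28) and 13 of 15 in complex V (-1.18). Complex II, which has no mitochondrially encoded subunit, had 4 of 4 lower (-1.15). Of all genes 14.3% fell. With total counts, where the all-gene median was 0.88, the medians were -0.33 to -0.26, 7, 1, 4, 4 and 1 genes of complexes I, III, IV, V and II fell against 3.33% of all genes, and 2 of complex IV and 1 of complex V rose against 49.3%. The mean log2 CPM of the 13 mitochondrial mRNAs minus that of the 74 nuclear subunits of complexes I, III, IV and V was 6.30, 6.15 and 6.40 across Sham 1 to 3, against 5.46, 5.52 and 4.66 across MI 2 to 4 and 6.07, 5.52 and 5.47 across MI_ART 1 to 3. Sham libraries were all above MI and MI_ART libraries. The difference was -1.07 in MI versus Sham and -0.597 in MI_ART versus Sham (exact permutation p = 0.1 in both, adjusted p = 0.167), and 0.476 in MI_ART versus MI (exact permutation p = 0.2). Leaving out 1 library gave -1.23 to -0.797, -0.788 to -0.490 and 0.199 to 0.629. Without MI 4 the differences were -0.797 in MI versus Sham and 0.199 in MI_ART versus MI.

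**Figure D5:**
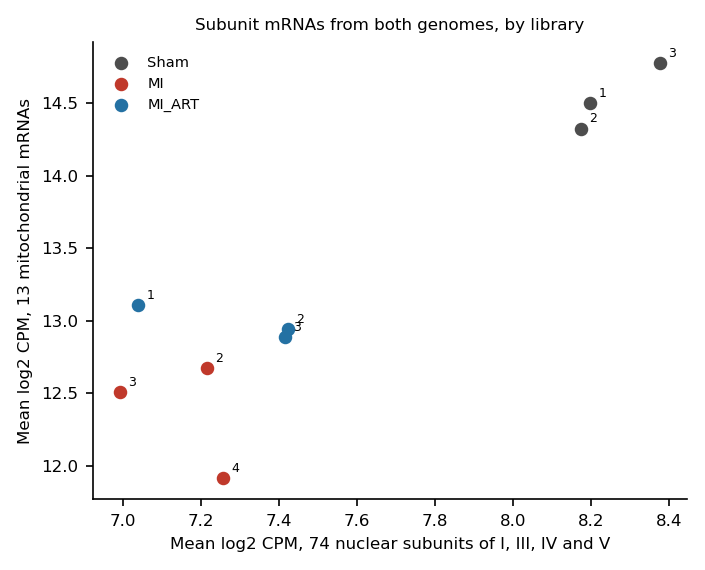
Each point is 1 library, labelled by replicate number: the mean log2 CPM of the 74 nuclear subunits of complexes I, III, IV and V on the horizontal axis and of the 13 mitochondrial mRNAs on the vertical axis. Sham libraries lie at the upper right, and MI 4 has the lowest mitochondrial mean, 11.9, at a nuclear mean of 7.26.

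The nuclear genes that maintain and express the mitochondrial genome had smaller median differences. Beside the counts of the 6 lists given here, 14.3% of all genes were lower and 18.8% higher in MI versus Sham with TMM, and 3.33% were lower and 49.3% higher with total counts. The change to total counts moves all genes nearly alike, and the all-gene median from 0.04 to 0.88, so list medians below 0 with TMM came out above 0 with total counts. Relative to the all-gene median the 6 list medians were -0.85 to -0.44 with TMM and -0.85 to -0.42 with total counts. Of 18 genes for mitochondrial transcription and its regulators 10 fell and none rose in MI versus Sham, with a median log2 of -0.74 (0.12 with total counts, 1 lower and 4 higher). They include Mterf2, of a family of mitochondrial transcription regulators (-1.54 ± 0.26, adjusted p = 0.00156), and Tfam, which packages mitochondrial DNA and starts its transcription (-0.93 ± 0.18, adjusted p = 0.00387). Of 17 genes for replication and upkeep of the DNA 10 fell and Exog rose (1.20 ± 0.32, adjusted p = 0.0184), with a median of -0.69 (0.16 with total counts, 3 lower and 4 higher). The smallest p belonged to Suclg1, a succinyl-CoA ligase subunit (-1.33 ± 0.18, adjusted p = 0.0005), and Slc25a4, the adenine nucleotide carrier of heart and muscle (-1.38 ± 0.20, adjusted p = 0.000672). Of 23 genes for RNA processing and stability 13 fell and Rexo2, an oligoribonuclease, rose (0.60 ± 0.15, adjusted p = 0.0146), with a median of -0.70 (0.15 with total counts, 1 lower and 4 higher). Lrpprc, which binds and stabilises mitochondrial mRNAs, had the smallest p (-1.62 ± 0.27, adjusted p = 0.00167), with group means and SDs (n = 3) of 278 ± 35.6 CPM for Sham, 90.7 ± 35.0 for MI and 128 ± 9.09 for MI_ART. Trnt1, which adds the CCA end to tRNAs, fell as well (-0.78 ± 0.15, adjusted p = 0.00335).

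Of 26 genes that modify mitochondrial rRNA and tRNA 11 fell and Alkbh1 rose (0.65 ± 0.18, adjusted p = 0.0209), with a median of -0.40 (0.46 with total counts, 1 lower and 9 higher, below the 49.3% of all genes that were higher on that scale), and the smallest p were those of Osgepl1 (-1.47 ± 0.26, adjusted p = 0.00197), a tRNA-modifying enzyme, and Mrm3 (-0.84 ± 0.16, adjusted p = 0.0031), an rRNA methyltransferase. Of 22 aminoacyl-tRNA synthetase genes 13 fell and Gars, which serves cytosol and mitochondria, rose (0.63 ± 0.14, adjusted p = 0.00623), with a median of -0.64 (0.21 with total counts, 0 lower and 5 higher). Fars2, the phenylalanine enzyme (-1.05 ± 0.16, adjusted p = 0.00116), and Qrsl1, a subunit of the amidotransferase that makes glutaminyl-tRNA (-1.14 ± 0.20, adjusted p = 0.00228), led them. Of 14 tested translation factors 11 fell and none rose, with a median of -0.81 (0.03 with total counts, none passing in either direction), led by Mtrf1, a release factor family member (-0.95 ± 0.17, adjusted p = 0.00202), and 1700021F05Rik (-0.93 ± 0.17, adjusted p = 0.00239). In MI_ART versus MI 0 genes of these 6 lists were called. In MI_ART versus Sham 5, 8, 9, 6, 8 and 10 of them fell in the order given, where 7.41% of all genes fell, and Exog rose (1.16 ± 0.32, adjusted p = 0.0312).

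Reads can be shared between mitochondrial genes and nuclear copies of mitochondrial DNA, and how the authors' counting treated reads with several matches is not given in the sources used here. Among rows with over 500000 counts, chosen after values were seen, 5 followed 1 member with a standard deviation of the log2 ratio under 0.1 across the 9 libraries. Gm10222, at chr1:24612404-24612700, held 88.8% to 99.9% of the counts of mt-Nd4l, and Gm10925, at chr1:24613971-24614651, held 99.5% to 104% of those of mt-Atp6. Both have the length of their mitochondrial counterpart in the RefSeq table, 297 and 681 bases. Gm28437 held 95.6% to 99.9% of mt-Co3, Gm28438 92.5% to 97.9% of mt-Nd3 and Gm28661 91.7% to 100% of mt-Co2. The other 3 rows of that size and kind of name followed a member less closely. Gm28439 held 143% to 214% of the counts of mt-Atp8, the member it followed most closely (SD of the log2 ratio 0.202), and Gm29216 held 81.6% to 111% of those of mt-Co3 (SD 0.135). Gm7336 held 2.67% to 15.3% of those of mt-Atp6 (SD 0.789). So for mt-Nd4l, mt-Atp6, mt-Co3, mt-Nd3 and mt-Co2 the printed level is uncertain by about the size of the rows that followed it. For Gm28439 the next member was nearly as close (SD 0.209), so its partner is not settled, and the level of mt-Atp8 may be uncertain too. Sharing of reads was not tested for any member. With the first 5 rows added to the members the share of all counts differed from Sham by -25.7 percentage points for MI and -18.2 for MI_ART, and MI_ART differed from MI by 7.55.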

How the data were processed

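Bulk RNA was counted in 9 libraries, 3 each of Sham, MI and MI_ART, grouped by their titles. The Sham libraries are titled CON1-AF, CON2-AF and CON3-AF, and no MI or MI_ART title has the ending AF. The deposited values are raw counts per Ensembl gene, made by the authors with HISAT (version not given) and featureCounts 1.5.0-p3 on GRCm38, per the submitters' processing notes, which also name DESeq 1.8.3. The sources used here do not give the strand or multiple-match settings. All 9 columns of the table were used, and the 9 sample files equal it at a tolerance of 0. In R 4.3.3, edgeR 4.0.16 kept 19326 genes by filterByExpr, scaled libraries by TMM and fitted all 9 together with quasi-likelihood F tests. A call means an adjusted p (Benjamini-Hochberg, over all tested genes) under 0.05. SEs are the size of the log2 difference over the square root of F. For values with 1 number per library, exact permutation tests (two-sided) were used. The fit was tested on simulated data. The members and gene lists were chosen with earlier results of these data known. Named one by one were the mRNAs, the rRNAs, the 3 tRNAs with the most counts, the tested tRNA with the fewest, and of each list of nuclear genes for mitochondrial expression the 2 with the smallest p in MI versus Sham. Others named were chosen after their values were seen, as were the comparison relative to the 13 mRNAs and the fits without MI 4 and MI_ART 3 together. The nuclear lists were translation factors, synthetases, modification, processing, replication, transcription and complexes I to V. Of 15 translation factors 14 were found. One list of cell type markers is not reported here. Alternatives were DESeq2 1.42.0, limma-voom (limma 3.58.1), other scalings, no filter, a replicate block and each library left out. Depth was 68046341 to 83685313 counts. No sequence was at hand, so none is shown.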

Additional observations from a re-analysis of the deposited data

How the results depend on the processing

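The number of members called lower in MI versus Sham was 33 to 34 when 1 library was left out, 33 with total counts, no filter or only the 2 groups, and 35 with DESeq2 or limma-voom. In MI_ART versus Sham it was 31 to 34 when 1 library was left out and 30 to 35 under the other alternatives. In MI_ART versus MI it was 0 under every alternative run, those relative to the 13 mRNAs included. The number called higher there was 0 as well, apart from the fits named next. DESeq2 called 2 higher (mt-Tq and mt-Tw). Relative to the 13 mRNAs, 4 were called higher without MI 2 (mt-Ta, mt-Tn, mt-Tc and mt-Ty). Same-numbered libraries did not stand out: their deviations correlated at -0.035 to 0.093, against -0.121 to 0.108 for libraries with different numbers. With 3 libraries per group these correlations cannot settle whether libraries were paired. With the replicate block 34, 0 and 34 members were called in MI versus Sham, MI_ART versus MI and MI_ART versus Sham. For single genes, MI versus Sham gave 670 of 684 alternative values on the same side, 11 that lost a call (mt-Tv), 2 that gained one (mt-Tf) and 1 that turned, mt-Ts1 with total counts (0.25). MI_ART versus Sham gave 663 on the same side, 15 that lost a call (mt-Nd4l, mt-Atp8 and mt-Co1) and 6 that gained one (mt-Tv and mt-Tf). In MI_ART versus MI 8 uncalled values turned: leaving out 1 library, the ranges were -0.235 to 0.425 for mt-Tf (below 0 without MI 3 or MI_ART 1), -0.305 to 0.955 for mt-Tv (below 0 without MI 2, MI 3 or MI_ART 1), -0.140 to 0.646 for mt-Tg (below 0 without MI 3) and -0.169 to 0.599 for mt-Tl2 (below 0 without MI 3 or MI_ART 1). The cause was not tested. The share of all counts differed by -24.4 to -20.4, 4.29 to 8.30 and -17.3 to -14.5 percentage points in MI versus Sham, MI_ART versus MI and MI_ART versus Sham when 1 library was left out, and by -18.6 in the last with protein-coding and mt- rows as denominator. The rRNA share of the pool differed by -0.252 to -0.126, -0.103 to 0.0269 and -0.300 to -0.159, the tRNA share by -0.131 to -0.0963, -0.00601 to 0.0290 and -0.120 to -0.0862, and mt-Nd6 over the heavy-strand mRNAs by -0.401 to 0.806, -1.23 to -0.0234 and -0.489 to -0.388. The mitochondrial over nuclear subunit difference ranged from -1.23 to -0.797, 0.199 to 0.629 and -0.788 to -0.490. With total counts the genes lower and higher in MI versus Sham were 1 and 4 for transcription, 3 and 4 for replication, 1 and 4 for RNA processing, 1 and 9 for modification, 0 and 5 for synthetases, and 0 lower for translation factors. Over all genes total counts gave 9528 higher and 644 lower in MI versus Sham, against 3631 and 2768 with TMM, and 8032 and 124 against 2488 and 1433 in MI_ART versus Sham. In MI_ART versus MI DESeq2 called 48 genes higher and 40 lower, against 0 and 2 in edgeR. Depth limits mt-Tf, mt-Tv and mt-Ts1, with 98, 212 and 92 counts in all.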

Other observations

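The row of mt-Ts2 held exactly 1 count in each of the 9 libraries, and 161 other rows of the table were also constant at 1 and 4 at 2. Low counts were unevenly filled: 684 to 936 rows per library held 4 counts, against 359 to 476 with 3 and 467 to 591 with 5, and 409 to 516 rows held 8, against 167 to 226 with 7 and 256 to 329 with 9.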
